A study of Camellia sinensis with 12 samples.

Results

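Genes that rose or fell in the middle of tea withering and were back near their starting level at 24 h were found among all genes of 12 RNA-seq libraries from tea leaves. For each gene the mean of the 9 h and 15 h libraries was contrasted with the mean of the 0 h and 24 h libraries in 1 fit. Of the 52332 genes in the table, 26712 had enough counts to be tested. A gene was taken as a transient rise when it passed the test, was at least 2-fold higher in the contrast, and was within 1.5-fold of its 0 h level at 24 h. A transient fall met the same limits in the other direction. There were 277 transient rises and 243 transient falls, 520 genes in all.

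All 12 libraries came from shoots of Camellia sinensis cv. Longjing43, a bud with its youngest leaves, that were plucked and then withered at 25 °C. RNA of the leaves was taken at 0, 9, 15 and 24 h, with 3 libraries at each time and no other treatment. The labels give an illumination of 0 lux, whereas the study's methods describe withering in the light. Whether the 3 libraries at each time stem from independent leaf lots is not given in the sources used here, and the p-values then reflect only library-to-library spread, possibly technical. No leaves were sequenced unwithered at 9, 15 or 24 h, and the 24 h sample was taken at the same hour of the day as the 0 h sample. Withering and time since plucking therefore cannot be told apart in any value given here. In every comparison that involves 9 or 15 h, the hour of the day cannot be told apart from them either.

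Withering is the step in which plucked leaves are spread out and slowly lose water. Losing water raises abscisic acid (ABA), a hormone made by the cleavage of carotenoids, and ABA closes stomata and switches on genes for water channels, protective proteins and chaperones. Many leaf genes also follow the hour of the day through the circadian clock, a loop of repressors that peak one after another. Genes that are high or low only in the middle of the process can belong to either kind, and also to wound and defence signalling after plucking.

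Library totals were 64931031 to 118261728 counts, so counting error limited mainly the genes with few counts. Values are library-scaled counts (CPM) after TMM scaling, which corrects library totals for a few abundant genes taking a large share. The TMM factor was 1.21 to 1.24 at 0 h and 0.758 to 0.793 at 24 h, and the 10 most abundant genes held 3.80 to 4.48% of counts at 0 h and 8.83 to 9.54% at 24 h. This scaling bears directly on which genes count as back at 24 h. With library totals alone, the median of all genes at 24 h against 0 h moved from -0.14 to -0.81 on the log2 scale. The call of 273 genes as transient rises under that scaling shared 113 with the 277 given here, or 40.8%, and 83 of the 243 falls (34.2%) were kept. "Back near 0 h" therefore means relative to the bulk of genes as TMM sets it. CPM are not divided by gene length, so levels are compared only within a gene.

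The leaf identity of the samples was checked by its markers. The summed level of 92 genes of the photosystems and light-harvesting complexes was 23776 to 25974 CPM at 0 h, 7666 to 8053 CPM at 9 h, 9149 to 11933 CPM at 15 h and 3923 to 4815 CPM at 24 h. Bud and meristem genes summed to 786 to 802, 785 to 819, 813 to 858 and 605 to 735 CPM at the 4 times. Xylem genes, 13 in number, summed to 87.7 to 93.6, 115 to 143, 87.1 to 93.0 and 139 to 169 CPM, and 30 phloem genes to 994 to 1161, 920 to 982, 992 to 1136 and 1465 to 1766 CPM. Guard cell and epidermis genes summed to 441 to 444, 347 to 368, 356 to 389 and 304 to 373 CPM. None of these sums was both away from 0 h at 9 and 15 h and back at 24 h. Where a marker sum moves, fewer cells of a type and less RNA per cell cannot be told apart in these bulk samples.

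In the contrast itself, 6979 genes (26.1% of those tested) were higher at 9 and 15 h and 5273 (19.7%) were lower by edgeR's quasi-likelihood test at an adjusted p of 0.05. The 24 h values enter both the contrast and the return, so shares of return are given as a description only. At 24 h, 26.0% of the higher genes and 27.5% of the lower genes were within 1.5-fold of 0 h, against 26.6% of the 14460 genes that were not called. Among the 2004 genes at least 2-fold higher, 1074 had ended more than 1.5-fold below 0 h, 653 more than 1.5-fold above, and 277 (13.8%) were back. Of the 1344 genes at least 2-fold lower, 603 had ended below, 498 above, and 243 (18.1%) were back. The transient rises were 1.04% and the transient falls 0.91% of the genes tested. When differences between 9 and 15 h and between 0 and 24 h were counted as spread, 860 genes passed as higher and 689 as lower, with 216 transient rises and 142 transient falls.

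**Figure D1:**
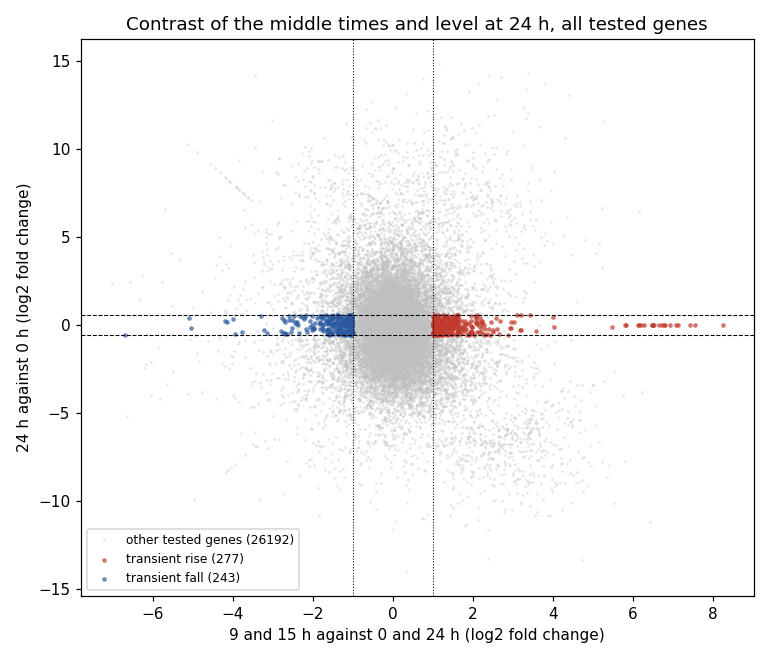
Each point is 1 of the 26712 tested genes. The x axis is the log2 fold change of 9 and 15 h against 0 and 24 h and the y axis that of 24 h against 0 h. Dashed lines mark the 1.5-fold limits at 24 h and dotted lines the 2-fold limits of the contrast. The 277 transient rises (red) and 243 transient falls (blue) fill the ends of a narrow band, and most genes with a large contrast lie above or below it. Red points on the line at 0 and beyond 5.5 are genes with no count in any 0 h or 24 h library.

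The limits that chose the members are thin at their edges. The transient rise with the smallest contrast was MSTRG.36732 (log2 fold change 1.0015), and MSTRG.49281 just missed it at 0.998. Among the falls MSTRG.43165 lay just inside at -1.0008 and MSTRG.34561 just outside at -0.998. The largest difference at 24 h that was still admitted was that of the glutaredoxin MSTRG.40128 (-0.58), and the aquaporin MSTRG.39295 was the nearest gene left out (0.59). A small difference at 24 h is not the absence of one: 67 of the 277 rises and 47 of the 243 falls still passed the test of 24 h against 0 h, as did 73.8% of all genes tested. The 95% interval of that difference lay within 2-fold for 173 of the rises.

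The members spanned a wide range of levels. Of the rises, 136 had a mean of at least 10 CPM at 9 and 15 h or at 0 and 24 h, 94 lay between 1 and 10 CPM, and 47 stayed under 1 CPM. Of the falls, 88, 96 and 59 lay in the same classes. For 20 of the rises no 0 h or 24 h library held a count, so that their size depends on the small count the fit adds, and no fold is given for them. The median contrast was 1.45 for the rises and -1.35 for the falls on the log2 scale, against 0.05 for all genes tested. These sizes, and the separation of libraries, follow in large part from how the members were chosen. In 209 of the 277 rises every 9 and 15 h library was above every 0 and 24 h library, and in 156 of the 243 falls every one was below. Among all genes tested, such a separation was seen in 4.45% and 2.45%.

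How the members differed between 9 and 15 h had no part in choosing them. By the test of 15 h against 9 h, 152 of the rises (54.9%) showed no called difference, 76 (27.4%) were higher at 9 h and 49 (17.7%) higher at 15 h. Of the falls, 116 (47.7%) showed none, 83 (34.2%) were lower at 9 h and 44 (18.1%) lower at 15 h. Over all genes tested 37.9% differed between 15 and 9 h, 19.8% with the higher level at 15 h and 18.1% with the lower. Both 9 h and 15 h passed the test against 0 h in 205 rises and 160 falls. In 25 rises and 30 falls the level was already within 1.5-fold of 0 h at 15 h, so that these changes were seen at 9 h. In 13 rises and 16 falls the level was still within 1.5-fold of 0 h at 9 h, so that these were seen at 15 h.

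The largest rise among genes of at least 10 CPM was that of a rubisco activase, MSTRG.46674, on scaffold 786 from 297712 to 301470. Rubisco activase is the chaperone-like ATPase that clears inhibitory sugars from rubisco, the enzyme that fixes carbon dioxide. The 0 h libraries held 6.46, 6.40 and 6.503 CPM, the 9 h libraries 612, 566 and 557 CPM, the 15 h libraries 122, 128 and 139 CPM, and the 24 h libraries 11.2, 3.47 and 2.90 CPM. All 6 middle libraries lay far above all 6 end libraries, and 1 of the 24 h libraries stood above the other two. The log2 fold change of the contrast was 5.47 with a standard error of 0.29 (adjusted p = 9.85e-09, edgeR's quasi-likelihood test). The level at 15 h was below that at 9 h (edgeR adjusted p = 0.00031).

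Chaperones were among the strongest rises, at 2 different times. HSP101 (MSTRG.42294), the disaggregase that pulls apart clumped proteins, held 1.49, 1.38 and 0.88 CPM at 0 h and 6.16, 5.41 and 6.62 CPM at 9 h. At 15 h it held 34.3, 28.4 and 25.7 CPM and at 24 h 1.06, 1.28 and 0.602 CPM. The peak was at 15 h, and the contrast was 3.59 on the log2 scale (SE 0.18). An HSP90-type chaperone of the htpG family, MSTRG.48049, was far more abundant, with 393, 474 and 460 CPM at 0 h, 1877, 1695 and 1871 CPM at 9 h, 1647, 1572 and 1462 CPM at 15 h, and 481, 372 and 387 CPM at 24 h. Its 2 middle times were level (edgeR adjusted p = 0.12 for 15 h against 9 h), and its contrast was 1.98 (SE 0.08). BAG6 (MSTRG.48615), a co-chaperone that binds HSP70 in Arabidopsis, rose more at 9 h. It held 0.562 to 1.11 CPM at 0 h, 6.34 to 9.83 CPM at 9 h, 2.86 to 5.11 CPM at 15 h and 0.792 to 1.38 CPM at 24 h.

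The chaperone list as a whole held few members. Of its 338 tested genes 117 (34.6%) were higher and 74 (21.9%) lower at 9 and 15 h, against 26.1% and 19.7% of all genes, with 4 transient rises and 3 transient falls, or 1.18% rises against 1.04% of all genes. The largest called change in the list that did not return was that of a cytosolic HSP70, MSTRG.15055, at 0.872 to 1.28 CPM at 0 h, 16.5 to 17.5 CPM at 9 h, 12.998 to 14.3 CPM at 15 h and still 3.04 to 3.37 CPM at 24 h. One DnaJ-domain protein, MSTRG.24920, a class of HSP70 helper, went the other way. It fell from 132, 139 and 145 CPM at 0 h to 18.8, 21.5 and 21.2 CPM at 9 h, with 75.5 to 83.8 CPM at 15 h and 103 to 129 CPM at 24 h.

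**Figure D2:**
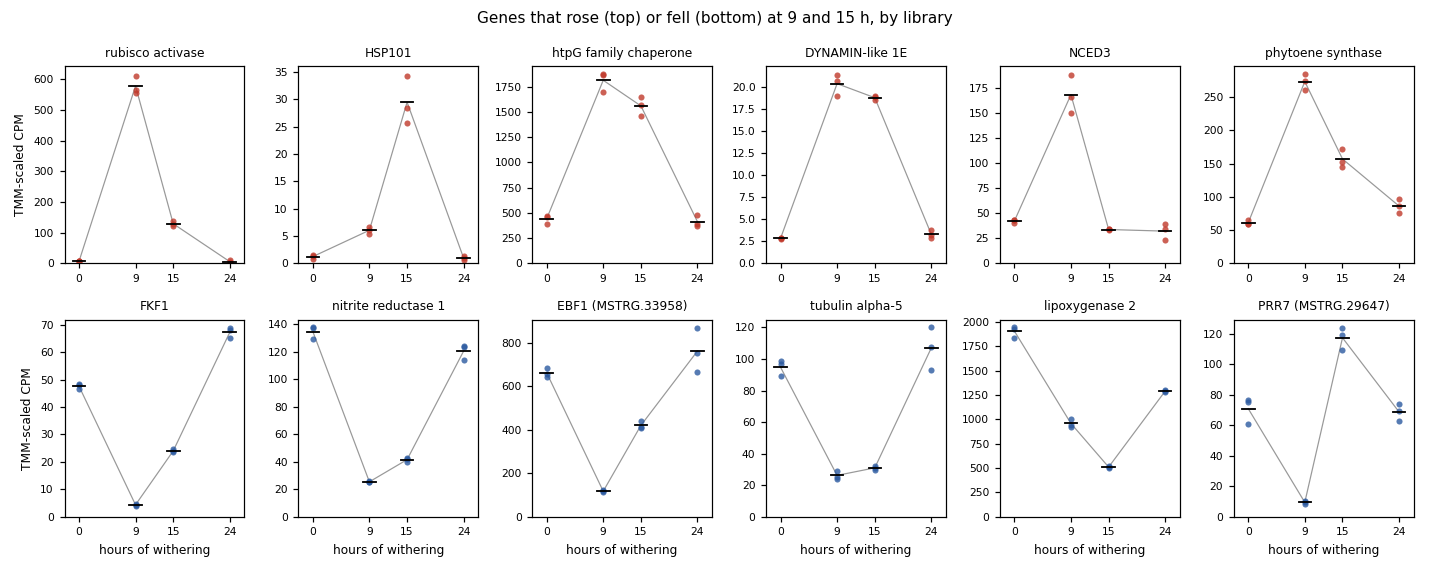
TMM-scaled CPM on linear axes from 0 for 6 transient rises (top, red) and 6 transient falls (bottom, blue) against hours of withering. Points are single libraries, 3 per time, and black bars are their means, joined by a grey line. Rubisco activase peaks at 9 h near 578 CPM, HSP101 at 15 h near 29.5 CPM, and the htpG family chaperone is high at both. The PRR7 gene falls to 9.43 CPM at 9 h and stands at 117.5 CPM at 15 h, above its 0 h level.

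Receptor-like kinases, the membrane proteins with which plant cells sense peptides, wall fragments and microbes, made up the largest group of rises. Of 909 tested, 400 (44%) were higher at 9 and 15 h and 96 were lower, with a median contrast of 0.63, and 36 (3.96%) were transient rises against 1.04% of all genes. There was 1 transient fall. A leucine-rich repeat kinase, MSTRG.45072, held 0.357 to 0.732 CPM at 0 h, 5.14 to 7.00 CPM at 9 h, 16.4 to 20.1 CPM at 15 h and 0.538 to 0.938 CPM at 24 h. The cysteine-rich kinase CRK25 (MSTRG.8752) behaved likewise, with 1.17 to 1.67, 7.33 to 8.47, 14.4 to 17.6 and 1.01 to 1.26 CPM at the 4 times. Their contrasts were 4.02 (SE 0.18) and 3.18 (SE 0.12), and both were higher at 15 h than at 9 h. Another leucine-rich repeat kinase, MSTRG.22349, peaked at 9 h with 26.7 to 28.2 CPM from 5.85 to 6.86 CPM at 0 h.

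Many of the higher receptor-like kinases were below 0 h at the end. Of the 297 that were at least 2-fold higher in the contrast, 214 (72.1%) had ended more than 1.5-fold below 0 h at 24 h, against 53.6% of all genes that were at least 2-fold higher. In 33 of those 214, no 24 h library held a count, against 230 of 1074 over all genes. Such genes enter the contrast through the loss at 24 h as much as through the middle times. The middle times were above 0 h by test in 170 of the 297, and within 1.5-fold of 0 h in 75, so that not all of them had risen before they fell. Over all 2004 genes at least 2-fold higher, these counts were 1239 and 447. The count of transient rises in this list was 32 to 35 under the 3 other scalings, and that of transient falls 1 to 6, the highest with library totals alone.

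Pathogenesis-related and disease resistance genes formed the next largest list of rises. Of 672 tested, 270 (40.2%) were higher and 41 (6.1%) lower, against 26.1% and 19.7% of all genes. There were 22 transient rises (3.27% against 1.04% of all genes) and 1 transient fall. Of the 148 that were at least 2-fold higher, 106 (71.6%) had ended below 0 h, against 53.6% of all such genes. The middle times were above 0 h by test in 70 of the 148 and within 1.5-fold of 0 h in 47. Over all 2004 such genes these counts were 1239 and 447. The median of the list at 15 h against 0 h was -0.14. With library totals alone the number of transient rises was 12. MSTRG.12747, a receptor-like protein with leucine-rich repeats, held 1.61 to 1.94 CPM at 0 h, 5.97 to 7.01 CPM at 9 h, 7.59 to 10.5 CPM at 15 h and 1.53 to 2.16 CPM at 24 h. MSTRG.22113, an intracellular immune receptor with a TIR domain, peaked at 9 h with 49.6 to 59.5 CPM against 10.2 to 12.9 CPM at 0 h and 6.25 to 14.5 CPM at 24 h. A dirigent-like gene, MSTRG.6642, of the family that steers the coupling of lignin units, rose from 6.78 to 7.81 CPM to 20.1 to 21.0 CPM at 9 h and 38.9 to 45.4 CPM at 15 h, and held 4.26 to 6.28 CPM at 24 h. By description, the transient rises held 8 NB-ARC resistance genes of 371 tested, 8 genes of the leucine-rich repeat resistance family of 61, and 8 ankyrin repeat genes of 122. Over all 26712 genes tested, 277 (1.04%) were transient rises. The families were picked after their counts of rises were seen. These large families hold near-identical copies, and how reads shared by copies were counted is not given in the sources used here.

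**Figure D3:**
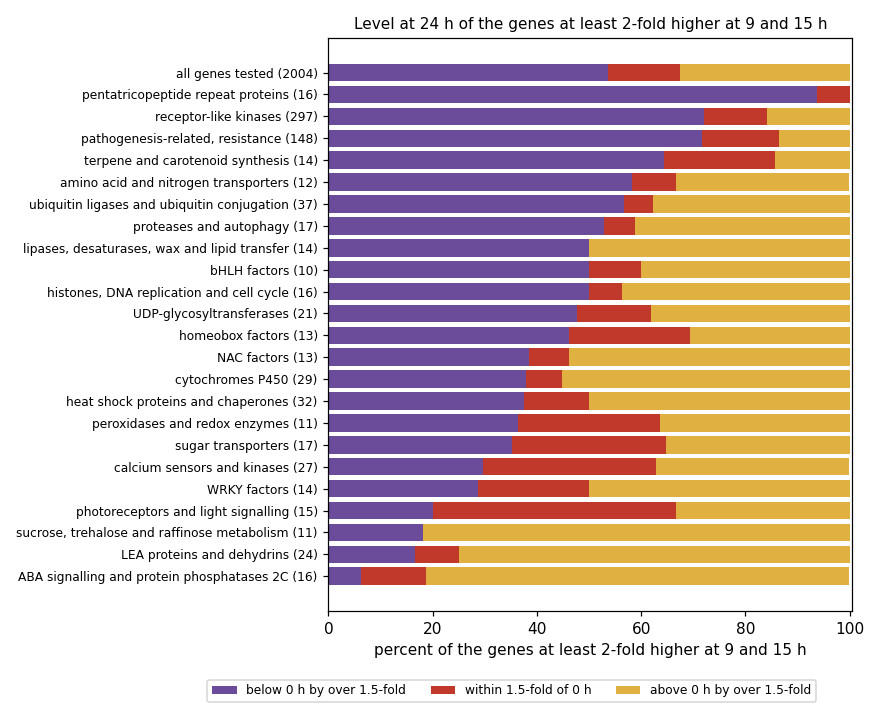
For each list with at least 10 genes that were 2-fold or more higher at 9 and 15 h (number in brackets), the bars give the percent of those genes that at 24 h were more than 1.5-fold below 0 h (purple), within 1.5-fold (red) or more than 1.5-fold above (yellow). Receptor-like kinases are 72.1% purple and all genes 53.6%. LEA proteins and the ABA signalling list are mostly yellow, with 18 of 24 and 13 of 16 genes above 0 h.

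Calcium sensors and kinases gave 9 transient rises and no transient fall among 254 tested, or 3.54% rises against 1.04% of all genes. Of the 254, 100 (39.4%) were higher and 46 (18.1%) lower, against 26.1% and 19.7%. Under the other scalings the rises numbered 4 to 8, with 0 or 1 fall. An EF-hand calcium-binding protein, MSTRG.44689, held 1.07 to 2.03 CPM at 0 h, 5.17 to 6.53 CPM at 9 h, 6.99 to 9.36 CPM at 15 h and 0.829 to 1.22 CPM at 24 h. The calmodulin-binding transcription regulator MSTRG.15351 was high at both middle times, with 28.0 to 34.6, 81.5 to 82.7, 73.6 to 84.7 and 23.7 to 29.7 CPM. The calmodulin-binding family gene MSTRG.2554 went from 3.54 to 5.48 CPM to 21.3 to 25.4 CPM at 15 h. At 24 h it held 2.86 to 3.50 CPM, below all 0 h libraries (log2 fold change -0.55, edgeR adjusted p = 0.00642).

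Several genes of hormone metabolism were among the members. NCED3 makes the first committed cut of a carotenoid on the way to ABA, and the NCED3 gene MSTRG.35173 held 40.4, 43.1 and 43.5 CPM at 0 h and 189, 167 and 150 CPM at 9 h. At 15 h it was already down to 34.3, 33.5 and 33.9 CPM, and the 24 h libraries held 23.5, 39.2 and 34.1 CPM. The 15 h libraries lay below all 0 h libraries and within the range of the 24 h libraries, and the contrast of 1.03 (SE 0.10) came from 9 h. A second NCED3 gene, MSTRG.26007, did not follow, with a mean of 168, 355, 153 and 505 CPM at 0, 9, 15 and 24 h. Yet another, MSTRG.19129, was a transient fall at a low level, with a mean of 2.78, 1.24, 0.362 and 3.80 CPM.

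Downstream of ABA, the phosphatase HAI2 (MSTRG.18084), of the type 2C phosphatases that hold ABA signalling in check, held 44.1 to 51.0 CPM at 0 h, 128 to 141 CPM at 9 h, 93.7 to 99.4 CPM at 15 h and 48.6 to 51.8 CPM at 24 h. PYR1-like 4 (MSTRG.44055), an ABA receptor, fell from 4.85 to 6.30 CPM to 1.02 to 1.76 CPM at 9 h and was at 6.14 to 9.11 CPM at 24 h. Homeobox 7 (MSTRG.12355), which ABA and drought induce in Arabidopsis, held 145 to 172, 473 to 485, 360 to 382 and 151 to 240 CPM at the 4 times. Of the 124 ABA signalling and phosphatase genes tested, 16 were at least 2-fold higher. At 24 h 13 of these 16 (81.2%) were still more than 1.5-fold above 0 h, against 32.6% of all such genes. The 2 that were back made up 12.5%, near the 13.8% of all such genes, and 1 was below.

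Single genes of carotenoid, starch and gibberellin metabolism were also members. The terpene and carotenoid list of 107 genes held 3 transient rises and 3 transient falls, and the starch list of 49 held 1 and 0. The gibberellin, cytokinin and brassinosteroid list of 72 held 1 transient rise (1.39%) and 4 transient falls (5.56%). Of all genes tested, 1.04% were transient rises and 0.91% transient falls. Phytoene synthase (MSTRG.38156), the entry enzyme of carotenoid synthesis, held 58.7 to 65.6 CPM at 0 h, 261 to 285 CPM at 9 h, 145 to 172 CPM at 15 h and 75.3 to 96.9 CPM at 24 h. Starch synthase 3 (MSTRG.21337), which lengthens starch chains, held 48.0 to 55.3, 124 to 147, 92.8 to 114 and 37.4 to 45.9 CPM. Gibberellin 2-oxidase (MSTRG.1406), which inactivates gibberellins, rose from 8.22 to 9.81 CPM to 32.0 to 37.2 CPM at 9 h and stayed at 26.0 to 27.7 CPM at 15 h, with 10.9 to 12.95 CPM at 24 h. Gibberellin 20-oxidase 2 (MSTRG.47296), which makes them, was a transient fall by the limits used here. It held 9.76 to 10.7 CPM at 0 h and only 0.547 to 0.758 CPM at 9 h. It then stood at 15.4 to 19.8 CPM at 15 h, above 0 h, and at 6.25 to 8.55 CPM at 24 h.

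Water channels gave 1 transient rise among 40 tested (2.5%) and dehydration proteins 2 among 92 (2.17%), against 1.04% of all genes. Of 40 aquaporins tested, 20 (50%) were higher and 4 (10%) lower, against 26.1% and 19.7% of all genes. Of the 9 (22.5%) that were at least 2-fold higher, against 7.5% of all genes, 7 were still more than 1.5-fold above 0 h at 24 h, as were 32.6% of all such genes. The 1 transient rise was the plasma membrane channel PIP3 (MSTRG.4464), at 14.1, 14.7 and 13.7 CPM at 0 h, 44.2, 46.1 and 46.1 CPM at 9 h, 35.035, 36.1 and 33.8 CPM at 15 h, and 11.7, 11.1 and 12.9 CPM at 24 h. Its contrast was 1.62 (SE 0.06, edgeR adjusted p = 4.46e-10). Among 92 LEA proteins and dehydrins, which protect proteins and membranes in drying cells, 37 (40.2%) were higher and 7 (7.61%) lower, and 18 of the 24 that were at least 2-fold higher remained above 0 h. The 2 transient rises were COR413-PM2 (MSTRG.2356), at 58.98 to 62.1, 163 to 175, 99.2 to 122 and 63.3 to 76.8 CPM, and an LEA glycoprotein (MSTRG.38014) at a mean of 1.10, 7.18, 2.64 and 0.824 CPM.

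Other large rises came from scattered functions. A DYNAMIN-like 1E gene (MSTRG.30950), a GTPase that shapes membranes, was level at the middle times, with 2.82 to 2.86, 19.0 to 21.4, 18.5 to 19.0 and 2.83 to 3.82 CPM. Dicer-like 4 (MSTRG.33561), which cuts double-stranded RNA into small interfering RNAs, held 8.87 to 11.6, 46.2 to 58.3, 24.4 to 33.8 and 6.19 to 10.3 CPM. A bHLH factor (MSTRG.50643) rose from 2.104 to 2.96 CPM to 18.9 to 22.5 CPM at 9 h and held 10.1 to 11.4 CPM at 15 h. An NPH3 family gene (MSTRG.23859), of the adaptors that act with blue-light receptors in Arabidopsis, held 6.18 to 8.31, 47.7 to 50.9, 19.2 to 23.2 and 6.52 to 7.68 CPM.

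Light signalling genes gave 7 transient rises and 2 falls among 100 tested, 7% rises against 1.04% of all genes. Of the 100, 33 were higher and 22 lower, against 26.1% and 19.7% of all genes. The rises numbered 3 with library totals alone. PIF3 (MSTRG.12173), a factor that phytochromes remove in the light, rose from 2.18 to 2.76 CPM to 6.92 to 8.42 CPM at 9 h and held 1.22 to 2.38 CPM at 24 h. A B-box zinc finger gene, MSTRG.40395, held 5.72 to 7.84, 20.2 to 20.6, 24.5 to 29.1 and 7.37 to 10.3 CPM. The magnesium chelatase subunit CHLH (MSTRG.15931), which puts magnesium into the chlorophyll precursor, held 18.7 to 21.9, 42.9 to 53.8, 48.0 to 53.0 and 17.7 to 22.5 CPM.

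Among lists of at least 20 tested genes, the clock list had the largest share of lower genes. Of 20 tested, 12 (60%) were lower at 9 and 15 h and 0 higher, against 19.7% and 26.1% of all genes, with a median contrast of -0.75, and these counts were the same under the 3 other scalings. Return was the exception here too, with 1 transient fall (1 or 2 under the other scalings) and 5 of 7 genes that were at least 2-fold lower still below 0 h at 24 h. GIGANTEA, a large protein that stabilises clock and flowering regulators, had 2 genes in the table. MSTRG.25319 had a mean of 320, 17.1, 29.4 and 111 CPM and MSTRG.13979 of 210, 19.8, 57.7 and 64.4 CPM at 0, 9, 15 and 24 h.

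The pseudo-response regulators PRR7 and PRR5 are repressors of the clock loop. The PRR7 gene MSTRG.29647 was the transient fall, with 61.2, 76.4 and 75.4 CPM at 0 h, 8.45, 9.75 and 10.1 CPM at 9 h, 124, 120 and 109 CPM at 15 h, and 74.2, 69.5 and 62.8 CPM at 24 h. The 15 h libraries were above those of 0 h, so its contrast of -1.07 (SE 0.08) mixes a fall at 9 h with a higher level at 15 h. The other PRR7 gene, MSTRG.35247, stayed low at both times, with a mean of 201, 8.82, 14.0 and 44.9 CPM. The PRR5 genes also differed: MSTRG.28846 had a mean of 30.3, 13.2, 19.0 and 27.6 CPM, while MSTRG.5400 stood at 106 CPM at 24 h against 7.93 CPM at 0 h.

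FKF1 (MSTRG.20180), a blue-light receptor that marks flowering repressors for degradation in Arabidopsis, was among the 15 largest falls. It held 48.2, 46.5 and 48.0 CPM at 0 h, 4.35, 4.63 and 4.0035 CPM at 9 h, 23.6, 24.5 and 23.9 CPM at 15 h, and 65.1, 68.0 and 68.6 CPM at 24 h. Its contrast was -2.47 (SE 0.06, edgeR adjusted p = 1.21e-11), and its 24 h level was 0.50 above 0 h on the log2 scale. CONSTANS-like 9 (MSTRG.48831), a B-box factor that delays flowering in Arabidopsis, held 82.7 to 90.9, 17.4 to 21.0, 24.8 to 30.3 and 65.3 to 78.8 CPM. Neither gene was in the clock list, whose words did not match their descriptions.

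**Figure D4:**
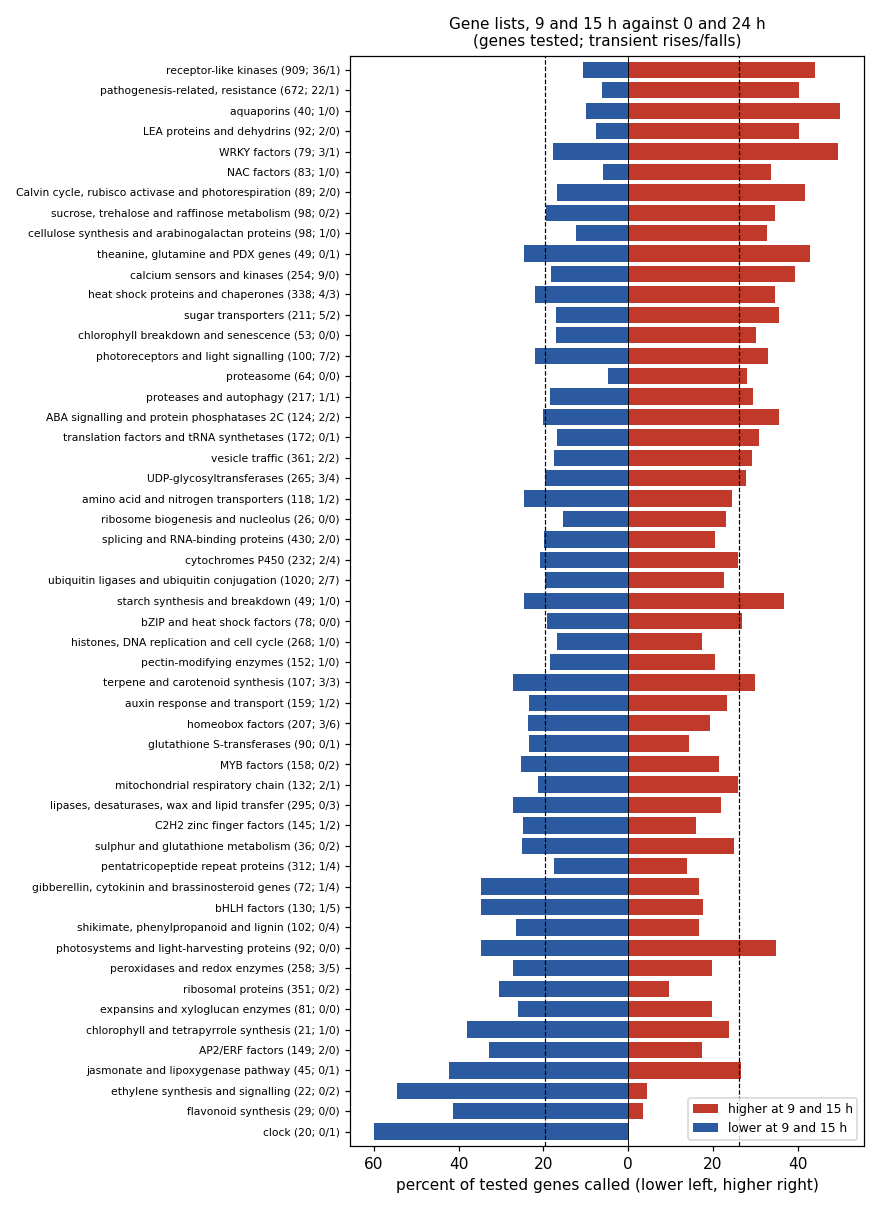
Percent of each list's tested genes that were higher (red, right) or lower (blue, left) at 9 and 15 h, with lists ordered by median contrast. Brackets give the genes tested and the transient rises and falls, and dashed lines mark 26.1% and 19.7% of all genes tested. Only lists of at least 20 tested genes are drawn. Receptor-like kinases are at the top (44% higher) and the clock at the bottom (60% lower, 0 higher).

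Some enzymes that carry nitrate and sulphate into organic form were transient falls. Nitrite reductase 1 (MSTRG.20529), one of the 15 largest, which turns nitrite into ammonium in the plastid, held 129, 137 and 138 CPM at 0 h, 25.1, 25.1 and 25.9 CPM at 9 h, 40.1, 42.0 and 42.4 CPM at 15 h, and 114, 124 and 123 CPM at 24 h. The contrast was -1.97 (SE 0.05, edgeR adjusted p = 2.29e-11), and the 9 h level was the lower of the middle times. Sulfite reductase (MSTRG.27804), the matching step for sulphur, had a contrast of only -1.03 and held 136 to 154, 67.2 to 75.9, 89.95 to 94.4 and 186 to 189 CPM. Glutathione synthetase 2 (MSTRG.16824), the last step to the thiol peptide glutathione, held 186 to 196, 62.4 to 68.6, 112 to 131 and 236 to 257 CPM.

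LSU2 (MSTRG.43155), a small protein that sulphur shortage induces in Arabidopsis, fell from 29.2 to 34.7 CPM to 4.03 to 4.64 CPM at 9 h and 8.05 to 11.9 CPM at 15 h, with 23.4 to 27.9 CPM at 24 h. In the list of 36 sulphur and glutathione genes, 9 (25%) were lower and 9 (25%) higher, against 19.7% and 26.1% of all genes. APS reductase 3 (MSTRG.9692), which feeds sulphite to sulfite reductase, did not return: its mean was 207, 45.3, 25.4 and 75.3 CPM. Other genes of the route ended above 0 h, with ATP sulfurylase 1 (MSTRG.27768) at 103, 46.7, 67.9 and 197 CPM and cysteine synthase C1 (MSTRG.24815) at 170, 50.1, 70.8 and 295 CPM. Gamma-glutamyl transpeptidase 4 (MSTRG.50845), which removes the glutamyl group of glutathione and its conjugates, held 96.4 to 107, 41.0 to 42.3, 79.5 to 85.0 and 126 to 164 CPM and was the transient fall in the theanine, glutamine and PDX list of 49 genes.

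Ethylene genes had more lower than higher contrasts. Of 22 tested, 12 (54.5%) were lower and 1 (4.55%) higher, against 19.7% and 26.1% of all genes. The median contrast was -0.38, and the lower genes numbered 11 to 14 under the other scalings. A lower contrast is not always a fall from 0 h, since 6 of the 22 were called above 0 h at 9 h and 6 at 15 h. Over all 26712 genes tested these calls numbered 7240 and 8081. ERF1 (MSTRG.26863), an ethylene response factor, counted as lower with a mean of 2.99, 1.36, 6.07 and 156 CPM. EBF1 proteins are the F-box proteins that remove EIN3, the master factor of the ethylene response, and all 4 EBF1 genes were lower. MSTRG.33958 held 686, 657 and 644 CPM at 0 h, 119, 121 and 112 CPM at 9 h, 408, 415 and 439 CPM at 15 h, and 665, 870 and 755 CPM at 24 h. MSTRG.31648 held 182 to 199, 47.4 to 54.9, 121 to 125 and 163 to 210 CPM. These 2 were back at 24 h, whereas MSTRG.775 and MSTRG.17621 had a mean of 49.4 and 52.2 CPM at 24 h against 153 and 210 CPM at 0 h.

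Single genes of auxin, microtubules and sucrose use were also transient falls. In the auxin list as a whole 37 of 159 (23.3%) were higher and 37 (23.3%) lower, against 26.1% and 19.7% of all genes. The list held 1 transient rise and 2 transient falls. Among falls of at least 10 CPM the largest was that of an enzyme that couples the auxin indole-3-acetic acid to glucose, MSTRG.16031, on scaffold 2162 from 82451 to 90126. It held 10.7, 11.3 and 12.4 CPM at 0 h, 1.07, 0.96 and 0.809 CPM at 9 h, 4.25, 4.17 and 2.95 CPM at 15 h, and 11.9, 15.3 and 17.1 CPM at 24 h, with a contrast of -2.78 (SE 0.13). Tubulin alpha-5 (MSTRG.12764), a microtubule subunit, was level at the middle times, with 89.0 to 98.7, 24.2 to 29.0, 29.9 to 32.4 and 93.2 to 120 CPM. An alkaline/neutral invertase (MSTRG.8888), which splits sucrose, held 47.9 to 49.0 CPM at 0 h, 14.3 to 16.3 CPM at 9 h, 8.01 to 10.7 CPM at 15 h and 43.2 to 53.4 CPM at 24 h.

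Among the most abundant falls were enzymes tied to tea aroma precursors and respiration. A lipoxygenase 2 gene (MSTRG.2052), of the plastid enzymes that start the making of jasmonates and green leaf volatiles, held 1834, 1950 and 1931 CPM at 0 h, 1003, 946 and 923 CPM at 9 h, 517, 514 and 498 CPM at 15 h, and 1276, 1296 and 1295 CPM at 24 h. Its 24 h level was -0.56 against 0 h on the log2 scale, close to the limit. Another lipoxygenase 2 gene, MSTRG.13416, did not follow it and had a mean of 216, 309, 95.6 and 21.9 CPM. HMGR1 (MSTRG.43670), the controlling enzyme of the mevalonate route to terpenes, fell further at 15 h, with 121 to 127, 61.6 to 71.9, 24.9 to 27.4 and 82.0 to 100.9 CPM. Cinnamyl alcohol dehydrogenase 9 (MSTRG.4108), of the last step to lignin alcohols, held 216 to 226, 93.2 to 102, 75.5 to 76.8 and 151 to 187 CPM. Of the 10 tested genes with that description, 4 were transient falls, against 0.91% of all genes tested. That description was picked after its count of falls was seen, and how reads shared by copies were counted is not given. The alternative oxidase MSTRG.32838, which hands respiratory electrons straight to oxygen, held 408 to 503, 105 to 119, 138 to 140 and 300 to 314 CPM.

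Flavonoid genes were more often lower than higher in the contrast. Of 29 tested, 12 (41.4%) were lower and 1 (3.45%) higher, against 19.7% and 26.1% of all genes, with a median contrast of -0.39. None was a transient fall, but at the 0.91% of all genes a list this short would hold few or none. Of the 8 that were at least 2-fold lower, 6 had ended below 0 h at 24 h and 2 above. Chalcone synthase opens the route to catechins, the main tea polyphenols. The chalcone synthase family gene MSTRG.14844 had a mean of 141, 24.9, 39.6 and 40.6 CPM, and MSTRG.14841 one of 55.3, 10.96, 45.1 and 208 CPM, low at 9 h and above 0 h at 24 h. Of 351 ribosomal proteins, 107 (30.5%) were lower and 34 (9.69%) higher, against the same shares of all genes. There were 2 transient falls (0.57% against 0.91% of all genes). With library totals alone 89 were lower and 59 higher. Under TMM scaling 73 of the 351 were called above 0 h at 15 h, against 8081 of all 26712 genes tested. One of the 2 transient falls was the ribosomal S17 gene MSTRG.14619. It held 83.6, 13.8 and 133 CPM at 0 h and 107, 15.5 and 136 CPM at 24 h. Its 9 h libraries held 10.8, 0.429 and 11.2 CPM and its 15 h libraries 15.7, 17.8 and 28.6 CPM. The libraries of replicate 2 were thus low at 0, 9 and 24 h, and the groups of this gene overlapped.

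Transient members were a small part of each transcription factor family, though in some families a larger share than over all genes. Of 79 WRKY factors, which bind the W box and act in defence and drought, 39 (49.4%) were higher and 14 (17.7%) lower, against 26.1% and 19.7% of all genes. They held 3 transient rises (3.8% against 1.04% of all genes) and 1 transient fall (1.27% against 0.91%). WRKY51 (MSTRG.80) held 1.57 to 2.19 CPM at 0 h, 5.40 to 6.29 CPM at 9 h, 10.5 to 12.6 CPM at 15 h and 0.659 to 2.95 CPM at 24 h. Another WRKY gene, MSTRG.30368, was high at 9 h, with 51.1 to 61.0, 202 to 220, 65.4 to 68.6 and 52.4 to 69.9 CPM. Of 130 bHLH factors, 45 (34.6%) were lower and 23 (17.7%) higher, with 5 transient falls (3.85% against 0.91% of all genes) and 1 transient rise. MYB15 (MSTRG.34350), a factor of cold and lignin responses in Arabidopsis, fell from 17.2 to 18.1 CPM to 6.84 to 7.40 CPM at 9 h and 3.06 to 3.68 CPM at 15 h. Homeobox factors, 207 tested, held 3 transient rises (1.45%) and 6 transient falls (2.9%). The homeobox gene KNAT3 (MSTRG.148) rose from 99.2 to 107 CPM to 249 to 259 CPM at 9 h and 176 to 192 CPM at 15 h, and was at 105 to 108 CPM at 24 h.

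The study asked which factor acts on CsPDX2.1 (MSTRG.33795), a gene of vitamin B6 synthesis that the study describes as able to split L-theanine, the amino acid behind the umami taste of tea. The binding of CsWRKY40 to the CsPDX2.1 promoter was tested there with the double-stranded probe below, shown because CsWRKY40 is one of the transient rises. Capitals mark the W box, the letters TTGACC, and the same positions in the mutant probe.
W box probe: tttatttaagaaTTGACCgtagataacttt
mutant probe: tttatttaagaaAAAAAAgtagataacttt
The probes are 30 bases long and differ at 5 positions within bases 13 to 18 counted from the 5′ end. The position of the probe in the genome was not looked up, since no genome was used here.

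CsWRKY40 (MSTRG.6798, scaffold 146, 823418 to 826216, described in the table as WRKY18) held 3.38, 5.08 and 3.37 CPM at 0 h, 15.3, 14.8 and 13.8 CPM at 9 h, 10.7, 10.7 and 9.28 CPM at 15 h, and 4.01, 1.997 and 3.26 CPM at 24 h. All 6 middle libraries were above all 6 end libraries, and the contrast was 1.80 (SE 0.16, edgeR adjusted p = 1.07e-06). The difference between 15 and 9 h did not pass (edgeR adjusted p = 0.079). With library totals alone its 24 h level was -1.02 against 0 h on the log2 scale, so that it would not count as back. The next gene in the table's numbering, MSTRG.6799, described as WRKY40, had a higher level and a like course, with a mean of 14.7, 61.4, 49.5 and 9.68 CPM. At 24 h it was at -0.61, just past the limit. How reads shared by these 2 related genes were counted is not given.

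CsB3 (MSTRG.24832) and CsZF (MSTRG.49989) were also transient rises. CsB3 held 30.6 to 42.3, 99.7 to 109, 69.0 to 77.7 and 30.5 to 36.4 CPM with a contrast of 1.29 (SE 0.08), and CsZF 46.4 to 61.9, 103 to 114, 85.3 to 104 and 36.3 to 45.0 CPM with a contrast of 1.12 (SE 0.09). The 24 h libraries of CsZF lay below its 0 h libraries (log2 fold change -0.35, edgeR adjusted p = 0.0201). CsGRAS (MSTRG.35117) and CsbHLH (MSTRG.8952) rose in the middle but did not return, at 10.9 to 12.2 CPM against 27.0 to 29.4 CPM and at 4.62 to 6.44 CPM against 2.59 to 3.24 CPM at 24 and 0 h. CsbZIP (MSTRG.22195) was higher by 0.86 (SE 0.05), under the 2-fold limit. These factors were picked by the study for their correlation with CsPDX2.1 in these same libraries, so their like course is not independent evidence.

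CsPDX2.1 itself changed less than its candidate factors. It held 111, 115 and 116 CPM at 0 h, 190, 202 and 170 CPM at 9 h, 197, 149 and 188 CPM at 15 h, and 135, 162 and 153 CPM at 24 h. One 15 h library lay below the highest 24 h library, so the middle and end libraries overlapped. The contrast was 0.48 (SE 0.08, edgeR adjusted p = 0.000183), and at 24 h the level was 0.40 above 0 h on the log2 scale. It was therefore higher in mid-withering but not a transient rise by the limits used here. MSTRG.9423, the other gene with that description, had a contrast of 0.94 (SE 0.19) at 1.06 to 3.63 CPM.

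**Figure D5:**
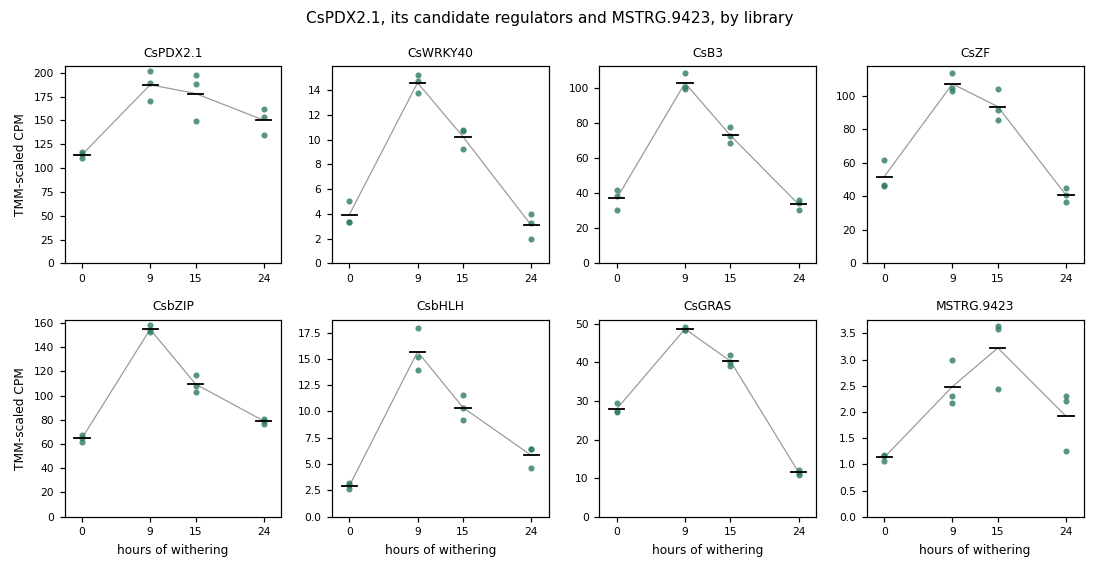
TMM-scaled CPM by library for CsPDX2.1, its 6 candidate factors and MSTRG.9423 against hours of withering, with points for the 3 libraries of a time and black bars for their means. Axes are linear from 0. CsWRKY40, CsB3 and CsZF are within 1.5-fold of 0 h at 24 h, CsZF with all 24 h libraries below those of 0 h, CsGRAS ends below it and CsbHLH above it. CsPDX2.1 stays within 111 to 202 CPM.

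Of the rises, 129 belonged to at least 1 of the 59 lists, 121 had a description but no list, and 27 had no description; of the falls the counts were 86, 122 and 35. Some members lay side by side, and whether more often than other genes was not tested. Of the 277 rises, 14 (5.05%) had another transient rise as the next tested gene on the scaffold, against 1.77% of all tested genes, and for the falls 6 of 243 (2.47%) against 1.62%. Several pairs were copies of one gene, such as the AAA-ATPase 1 genes MSTRG.51372 and MSTRG.51375 and the ankyrin repeat genes MSTRG.18025 and MSTRG.18029. These pairs may share reads. These pairs, and the genes given only by their mean in the 4 groups, were chosen after their values were seen, as were the LEA glycoprotein and the genes at the limits.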

How the data were processed

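RNA-seq was made from 12 libraries, 3 at each of 4 withering times. The authors deposited raw counts per gene in 1 table with gene descriptions. The submitters' processing notes name HISAT2 2.0.5 and StringTie 1.3.1, besides Trimmomatic and, for quality reports, FastQC 0.10.1. Not given in the sources used here were the build of the genome, the strandedness of counting and the handling of reads shared by copies. Scaffold positions are those of the table.

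Counts were tested with edgeR 4.0.16 (limma 3.58.1, R 4.3.3): TMM scaling, filterByExpr by time, a quasi-likelihood fit with time as a factor over all 12 libraries, and Benjamini-Hochberg adjustment over the 26712 genes tested, with a threshold of 0.05. Standard errors were taken from the fold change and the F statistic. The contrast was also checked on simulated counts, whose mean levels and spread were taken from these same libraries. Library totals of 64931031 to 118261728 counts set the precision, and no 2 libraries were duplicates.

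Genes were described by 59 lists of words matched in the short description. Named genes were the 15 largest rises and 15 largest falls with a description, at least 10 CPM on the higher side and no overlap of libraries, up to 4 transient members per list with at least 5 CPM, the largest change per list that was not back, and the genes named in the study. Other genes are said to be chosen after their values were seen. The members and lists were chosen with earlier results of these data known. Alternatives covered scaling, test (DESeq2 1.42.0), filter, replicate block, single libraries and the limits for size and return. Figures were drawn with Python 3.11.15. No table identifier matched the RefSeq gene table, so no promoter or protein sequence is given.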

Additional observations from a re-analysis of the deposited data

How the results depend on the processing

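With only 2 groups in the fit, 860 genes were higher, 689 lower, 216 transient rises and 142 transient falls, because differences between the times of a side then count as spread. That fit also reversed the contrast of MSTRG.23928 (-0.81), MSTRG.10023 (-0.085), MSTRG.47296 (0.035), MSTRG.46753 (-1.90) and MSTRG.11774 (-0.35 on the log2 scale). It compares 1 fitted level per side, whereas the main contrast averages the log2 levels of 2 times per side. For MSTRG.23928 the mean was 8.65 CPM at 9 and 15 h and 15.2 CPM at 0 and 24 h. Whether this difference between the fits accounts for all the reversals was not tested. The limits set the number of members by construction: rises and falls numbered 461 and 402 with a 2-fold limit at 24 h, 66 and 42 with a 4-fold contrast, 202 and 148 with the 95% interval at 24 h within 2-fold, 121 and 69 with each middle time 2-fold past both ends, and 209 and 156 with no overlap of libraries. Leaving out 1 library gave 6400 to 7458 higher, 4759 to 5400 lower, 267 to 313 rises and 227 to 253 falls. With library totals as the only scaling, 8427 genes were higher and 4301 lower, so that the share of higher calls moved from 57.0 to 66.2%, and 273 rises and 169 falls were found. DESeq2 gave 6670 higher, 6352 lower, 253 rises and 286 falls. A fit with the replicate block gave 6724 higher, 5086 lower, 267 rises and 226 falls. Over all genes the labels' replicate numbers showed no pairing of the libraries: in 18 pairs the correlation of deviations was -0.079 to 0.061. Such a correlation cannot exclude that libraries with the same number shared a leaf lot. Over 20 fits 47 rises and 30 falls were kept in all, or 116 and 82 when library totals alone are left out. Of the 167 named genes, 108 kept direction and call in every fit. Depth limits the 47 rises and 59 falls under 1 CPM most.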
